A study of Mus musculus with 6 samples.

Results

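The genes described here encode proteins that place, remove and read DNA methylation. There are 10 of them, chosen by name, of 36520 genes that lie on the sequence covered by the peak list. The writers are Dnmt3a, Dnmt3b and Dnmt3l, the erasers are Tet1, Tet2 and Tet3, and the readers are Uhrf1, Uhrf2, Mbd1 and Mbd2. All 10 lay on covered sequence. The gene for the maintenance enzyme, Dnmt1, lies on chromosome 9, which was not analysed here.

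Methylated DNA was captured with an MBD2-based kit and sequenced (MBD-seq) from primary chondrocytes, the cells of cartilage, cultured from knee articular cartilage of mice at postnatal day 3 to 5. The labels give 3 control cultures, with the genotype Dnmt1 flox, and 3 conditional knockout (cKO) cultures, with the genotype Prx1-Cre;Dnmt1 flox/flox. All 6 samples therefore carry a floxed Dnmt1 allele, and the cKO samples carry in addition a Cre driven by Prx1, which is active in limb mesenchyme. The measurement is of DNA and holds no expression values, so the cell type could not be checked against marker genes.

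The values are those of 1 list of 84111 peaks, called on 3 merged datasets whose group is not stated in the sources used here; the deposited list is titled as regions of Dnmt1-mediated methylation. No value belongs to a single culture. No spread between cultures, no comparison of control with cKO and no test can be given, the depth per sample is unknown, and the counts and values below are descriptions of this list. Each peak has a width, a fold enrichment (the peak's own value from the authors' caller, signal over background at the summit) and a −log10 q, which is at least 20.004 in every peak. The number of reads stacked at the summit (pileup) and the background were recovered from the fold and the p-value. The lowest background, 6.37 reads, is shared by 74.98% of all peaks, so for these the fold follows the pileup alone. Intervals given for a fold are 95% exact Poisson intervals of the pileup with the background held fixed, and cover counting error only.

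In mammals DNA methylation sits mainly on cytosines that precede a guanine (CpG). Dnmt3a and Dnmt3b set new methyl groups, Dnmt3l has no catalytic activity of its own and assists them, and Dnmt1 copies the pattern after replication, guided by Uhrf1, which recognises CpGs methylated on one strand. Tet enzymes oxidise the methyl group as a step towards its removal, and Mbd proteins bind methylated CpGs and recruit repressor complexes. CpG-rich promoters of active genes are usually free of methylation, whereas the bodies of active genes are usually methylated.

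The start sites were examined first. RefSeq (GRCm38.p6) start windows, from 250 bases before to 50 after a start, were available for 8 members, 13 windows in all. None of the 13 was overlapped by a peak. The list holds only called regions, with a −log10 q of at least 20.004. Here and below, a missing peak therefore does not show that methylation is absent. Of all 15401 windows of protein-coding genes 2.96% were overlapped, so that an absence from 13 windows is near this background. CpG content differed widely between the members. Tet2 had 57 CpGs in its window, more than 99.8% of protein-coding windows, and the paired starts of Dnmt3a had 46 and 47. The 3 windows of Dnmt3l had 6, 4 and 3 CpGs, against a median of 14. Among protein-coding windows as a whole, overlap with a peak was found in 1.37% of those with at least the median number of CpGs and in 4.66% of those with fewer.

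The stretches just before the first listed start of Dnmt3b, Uhrf1 and Dnmt3l are shown as examples that differ in CpG content, and none of the 3 holds a peak. The windows richest in CpG, those of Tet2 and the paired Dnmt3a starts, are not among them. Uhrf1 has a second listed start, whose window holds 33 CpGs against 12 at the first. They are written 5′ to 3′ on the coding strand, ending where the gene begins in the gene table, and every CG is in capitals. The motif searched was CG, which reads the same on both strands; at least 1 CG occurs in 96.1% of protein-coding start windows. The stretch of Dnmt3b (chr2:153649199-153649410, plus strand) has 16 CGs in 212 bases, that of Uhrf1 (chr17:56303087-56303336, plus strand) has 10 in 250 bases and that of Dnmt3l (chr10:78042037-78042286, plus strand) has 5 in 250 bases.
Dnmt3b: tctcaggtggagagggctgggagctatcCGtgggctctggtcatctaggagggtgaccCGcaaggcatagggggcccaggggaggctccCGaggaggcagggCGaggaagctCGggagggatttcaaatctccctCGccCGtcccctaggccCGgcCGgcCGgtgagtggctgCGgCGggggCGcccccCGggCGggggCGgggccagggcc
Uhrf1: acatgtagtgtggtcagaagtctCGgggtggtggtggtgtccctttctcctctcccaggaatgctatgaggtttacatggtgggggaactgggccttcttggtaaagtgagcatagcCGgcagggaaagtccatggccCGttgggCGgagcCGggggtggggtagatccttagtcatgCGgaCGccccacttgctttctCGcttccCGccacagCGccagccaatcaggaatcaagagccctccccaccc
Dnmt3l: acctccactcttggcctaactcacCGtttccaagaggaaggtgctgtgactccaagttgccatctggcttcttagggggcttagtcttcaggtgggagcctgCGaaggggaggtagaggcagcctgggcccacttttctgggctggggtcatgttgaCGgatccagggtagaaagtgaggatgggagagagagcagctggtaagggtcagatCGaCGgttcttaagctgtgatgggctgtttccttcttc

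The nearest peak to a start differed as widely. Measured to the peak midpoint, it lay 22.6 kb from the closer of the upstream Dnmt3a starts, 26.6 kb from the start of Tet2, 13.2 kb from that of Tet3 and 12.7 kb from that of Uhrf2. At Dnmt3b the distance was 9.76 kb, at Tet1 7.53 kb, and at the first Uhrf1 start 3.20 kb, to a peak on the upstream side. Over all protein-coding starts the median was 8.203 kb, with quartiles at 3.39 and 17.9 kb. The shortest distance among the members was at Dnmt3l, where a peak lay 1.01 kb from the second of its 3 listed starts, and 6.88% of protein-coding starts had a peak within 1 kb. The third Dnmt3a start, at 3891744 on chromosome 12, from which the shorter form of the enzyme is known to be made, had its nearest peak at 4.15 kb, in the downstream direction.

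Inside the genes, every member had at least 1 peak, as did 64.7% of protein-coding genes of any length. The 10 bodies, 591.2 kb in all, held 57 peaks. Dnmt3a and Tet3 had 10 each, Tet1 and Tet2 had 7 each, Dnmt3b had 6, Uhrf1 and Mbd2 had 5 each, Mbd1 had 3, and Dnmt3l and Uhrf2 had 2 each. Longer genes collect more peaks, so each member was set beside all protein-coding genes of similar length. Similar meant a ratio of the shorter to the longer length of at least 0.8. Of these genes, from 6.34% (at the length of Dnmt3a) to 32.9% (at that of Mbd1) had no body peak, so most had at least 1. In 9 of 10 members the number was above the median of these genes, Uhrf2 being the exception. The sum of 57 stood beside 40.1 for the summed means and 28 for the summed medians of the similar-length genes; the counts per gene are skewed, and 8 of 10 members were above the mean.

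**Figure D1:**
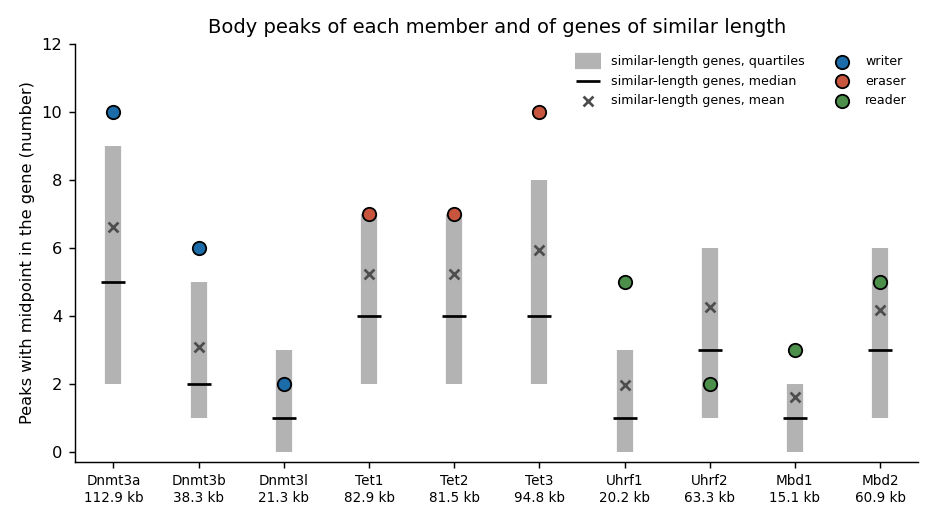
Number of peaks with midpoint in each member gene (filled circles, coloured by role; y axis) beside protein-coding genes of similar length (ratio of at least 0.8; grey bar, quartiles; line, median; cross, mean). Dnmt3a, Dnmt3b, Tet3, Uhrf1 and Mbd1 lie above the upper quartile of their comparison genes and Uhrf2 lies below the median.

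Relative to the genes of similar length, Uhrf1 was the fullest in the list as deposited. Its 20.2 kb on chromosome 17 held 5 peaks, where 1941 genes of similar length had a median of 1 and 6.70% had more. Dnmt3b (38.3 kb, chromosome 2) had 6 against a median of 2, with 12.3% of 1704 genes above it. Mbd1 (15.1 kb, chromosome 18) had 3 against 1, with 13.3% of 1837 genes above it. For Tet3 (94.8 kb, chromosome 6) 15.8% of 1061 genes had more than its 10 peaks, and for Dnmt3a (112.9 kb, chromosome 12) 20.2% of 915 genes did. All 5 were thus above the upper quartile of their comparison genes, though none stood beyond the range that other genes fill. With peaks within 500 bp merged, Mbd1 had 2 and Dnmt3b had 5, which equal the upper quartiles before merging. Quartiles after merging are not given here, so the place of Mbd1 and Dnmt3b above them is uncertain. Tet1 (82.9 kb, chromosome 10), Tet2 (81.5 kb, chromosome 3), Dnmt3l (21.3 kb, chromosome 10) and Mbd2 (60.9 kb, chromosome 18) were above the median and at or under the upper quartile. In Uhrf2 (63.3 kb, chromosome 19) 2 peaks stood against a median of 3, and 56.4% of 1284 genes had more.

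The pair of Uhrf genes, which encode related proteins, differed most among the members. Uhrf1 had 24.8 peaks per 100 kb and Uhrf2 had 3.16, the highest and the lowest value of the 10 in the full list. Uhrf1 rested on weak peaks: 2 of its 5 had a −log10 q of at least 50 and 1 had one of at least 100, whereas Mbd1 had all 3 of its peaks above 100. In the full list Mbd1 followed with 19.8 and Dnmt3b with 15.7. The other 6 lay between 8.21 (Mbd2) and 10.5 (Tet3), and protein-coding genes together had 5.69. Pooled over the comparison genes, density fell with gene length, from 10.5 per 100 kb at the length of Mbd1 to 5.95 at the length of Dnmt3a.

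The part of each body that lay under peaks put Mbd1 first. In Mbd1 14.5% of the body was covered (2200 bp; median of similar-length genes 3.00%), in Uhrf1 7.16% (median 2.59%) and in Tet3 6.22% (median 1.81%). Uhrf2 had 0.954% (median 1.94%). Of similar-length genes, 7.62% had a larger covered share than Mbd1 and 9.24% a larger one than Tet3. Over all members 3.95% of the body was covered, against 2.51% over all protein-coding genes, a comparison not matched for length. Beside genes of similar length, the covered share was above the median in 9 members and below it in 1.

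**Figure D2:**
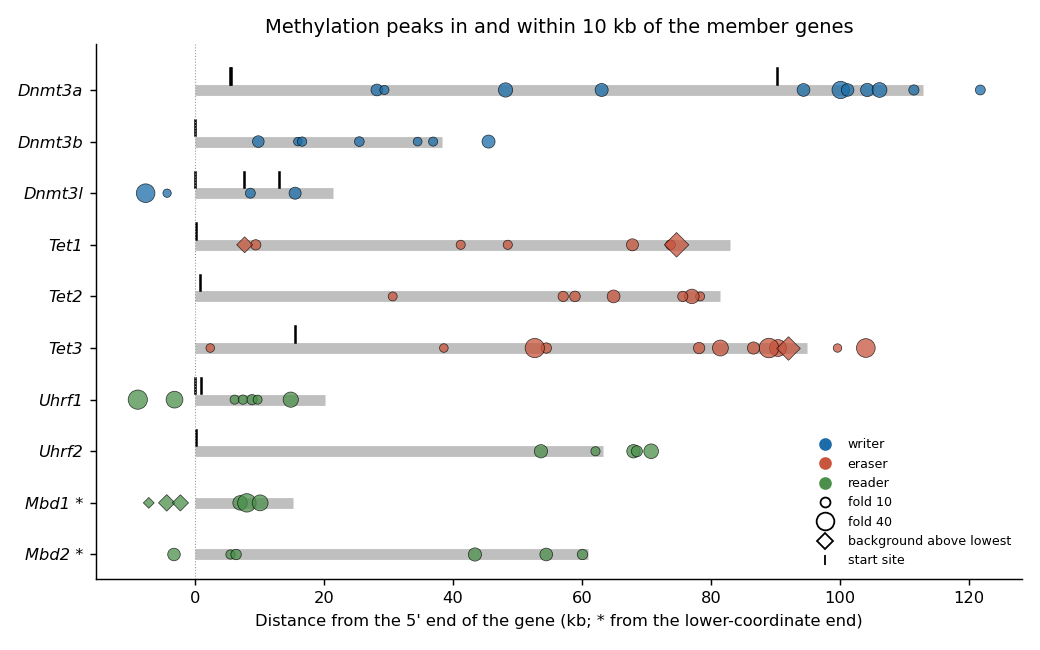
Position of each peak (symbols; area rises with fold, diamonds mark a background above the lowest) along the 10 genes (grey bars), as distance in kb from the 5′ end, or from the lower-coordinate end for Mbd1 and Mbd2; black ticks are RefSeq start sites. Peaks of Dnmt3a, Tet2 and Tet3 gather towards the 3′ end, Uhrf2 has none over its first 53.6 kb, and no start site carries a peak.

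Among the writers, Dnmt3a carried the stronger peaks. Its 10 body peaks had folds from 8.14 to 38.5, with a median of 19.7. The strongest, at 3901397 to 3901931, had a pileup of 283 reads and a fold of 38.5 (34.2 to 43.3). This peak and 5 others form a run over the last 25% of the gene, from 3895653 to 3913181, downstream of the start of the short form. The 4 remaining peaks were spread between 3829557 and 3864789, and the first 28.2 kb of the gene held none.

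Dnmt3b had 6 body peaks with folds of only 6.51 to 15.3 (median 8.28) and widths of 115 to 330 bp, so that its high number came from narrow, weak peaks. The strongest was at 153659042 to 153659371, with 112 reads and a fold of 15.3 (12.6 to 18.4). None reached a fold of 20, which 30.9% of peaks in protein-coding bodies did. A peak 7.18 kb beyond its 3′ end, with a fold of 20.1, was stronger than all 6. A near copy of Dnmt3b, the rodent gene Dnmt3c, listed as the pseudogene Dnmt3b-ps1, lies next to it on chromosome 2 and held 0 peaks; how reads shared by both copies were placed is not given in the sources used here, so the division between them is uncertain.

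Dnmt3l had 2 body peaks. That at 78050734 to 78050968 had a width of 235 bp, a pileup of 74 reads, a fold of 10.2 and a −log10 q of 49.9, and that at 78057590 to 78057994 had a width of 405 bp, 122 reads, a fold of 16.7 (13.9 to 19.9) and a −log10 q of 106.7. Stronger signal lay upstream of it. A peak of 696 bp at 78034262 to 78034957 had a fold of 44.9 and falls in Aire, the autoimmune regulator gene, as does a narrow one of 67 bp with a fold of 6.10.

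The 3 erasers had 24 body peaks. The median fold was higher in Mbd1 (31.6) than in Tet3 (24.4), but Tet3 had the single strongest peak of all members. Its highest, at 83367759 to 83368692, was 934 bp wide with 364 reads and a fold of 49.5 (44.6 to 54.9), above 99.8% of all peaks in the list. A second, at 83404206 to 83404871 in mid gene, had a fold of 48.2. In all 5 of its 10 body peaks reached a fold of 20, and 1 of them, at 83366221 to 83367438, was 1218 bp wide. Near the other end of the gene a weak peak (fold 6.78) lay 2.35 kb from the 5′ end, on the upstream side of the listed start.

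Tet1 had 7 body peaks with a median fold of 11.1. A single one exceeded a fold of 20, at 62812439 to 62813183 near the 3′ end, with 323 reads over a background of 7.41 and a fold of 38.5 (34.4 to 42.9). A second peak of Tet1, at 62879515 to 62880067 and 7.68 kb from the 5′ end, had nearly as many reads, 311, but a fold of 14.0, since its background was 21.3 reads, the highest of any body peak of the members. That peak and its neighbour at 62877901 to 62878246 also lie in the lncRNA gene Gm51805, and the list gives no strand. Tet2 also had 7 body peaks with a median fold of 11.1. Its strongest, at 133467876 to 133468351, had 189 reads and a fold of 25.8 (22.2 to 29.7). Its first 30.6 kb held no peak.

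The readers differed in kind. Each of the 3 body peaks of Mbd1 reached a fold of 20: a peak of 503 bp at 74274323 to 74274825 with 187 reads, a fold of 25.5 and a −log10 q of 196.3, one of 1216 bp at 74275019 to 74276234 with 321 reads, a fold of 43.7 (39.0 to 48.7) and a −log10 q of 409.2, and one of 481 bp at 74277442 to 74277922 with 232 reads, a fold of 31.6 and a −log10 q of 264.3. They lie between 46.1% and 66.6% of the way along the gene, counted from its lower-coordinate end. The 1216 bp peak was wider than 98.0% of all peaks.

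Uhrf1 showed the reverse, with many weak peaks. At 56309348, 56310640, 56312026 and 56312921 stood peaks of 208 to 280 bp with pileups of 58, 62, 81 and 56 reads and folds of 8.004, 8.55, 11.1 and 7.73. Their −log10 q values were 33.6, 37.5, 57.5 and 31.7. The fifth, at 56317907 to 56318418, was 512 bp wide with 211 reads, a fold of 28.8 (25.03 to 32.9) and a −log10 q of 232.0. The strongest signal near Uhrf1 was upstream of it, in the neighbouring gene Arrdc5, with folds of 48.0 at 56294138 to 56294755 and 35.7 at 56299876 to 56300401.

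The body peaks of Uhrf2 were both near its 3′ end, at 30083838 to 30084269 (432 bp, 154 reads, fold 21.0 with an interval of 17.9 to 24.6, −log10 q 149.3) and at 30092429 to 30092600 (172 bp, 59 reads, fold 8.14, −log10 q 34.5). The stretch of 53.6 kb before them, 84.7% of the gene, held no peak. Among 886 genes of similar length with a body peak and a known strand, 5.87% had a longer such stretch as a share of the gene, and the median was 28.5%.

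Mbd2, the gene of the protein that the capture kit uses, was between the median and the upper quartile of its comparison genes. Its 5 peaks started at 70573604, 70574412, 70611412, 70622489 and 70628008, with widths of 203, 329, 403, 364 and 565 bp. Their pileups were 61, 85, 152, 139 and 84 reads and their folds 8.41, 11.7, 20.8 (17.6 to 24.3), 19.0 and 11.5. The −log10 q values were 36.5, 62.0, 146.6, 129.0 and 60.8. The last lay 0.844 kb from the higher-coordinate end. Mbd2 was the only member with a peak midpoint within 1 kb of a gene end (1 of 10), against 21.8% of protein-coding genes.

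**Figure D3:**
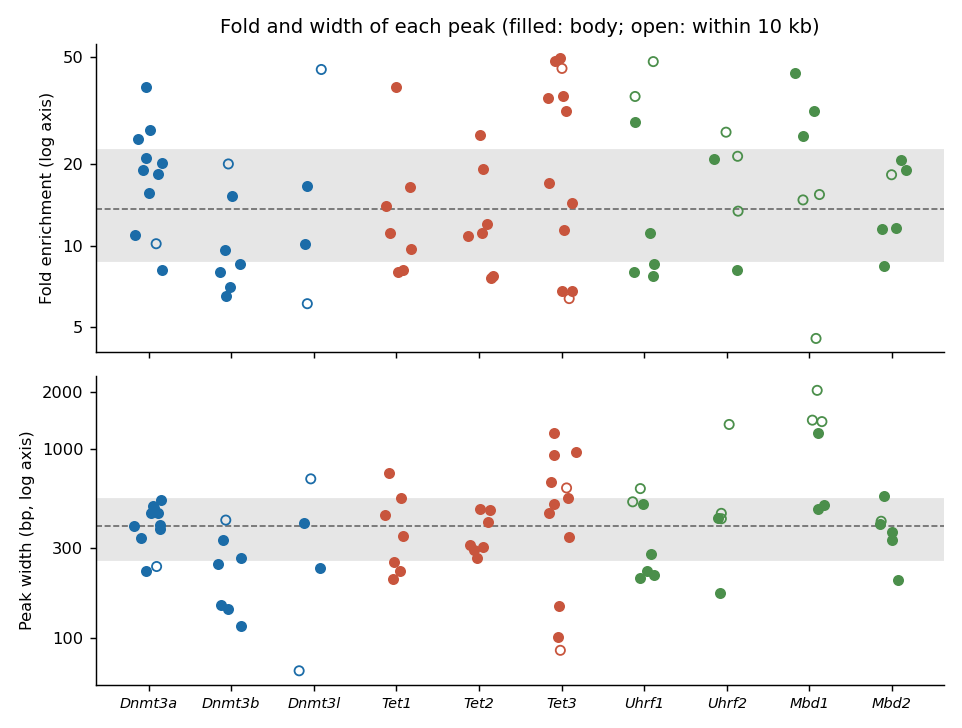
Fold enrichment (top, log axis) and width in bp (bottom, log axis) of each peak in a member gene (filled) or within 10 kb of it (open), coloured by role; the band and dashed line are the quartiles and median of 44414 peaks in protein-coding bodies. Body peaks of Dnmt3b stay at or below a fold of 15.3, all 3 body peaks of Mbd1 are above 25, and those of Tet3 span 6.78 to 49.5.

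In fold and width, the 57 body peaks as a set were close to other gene-body peaks. Their median fold was 14.0 and their median width 378 bp, against 13.7 and 393 bp for 44414 peaks in protein-coding bodies. Their median pileup was 105 reads, against 115, and their median −log10 q 85.4, against 95.3. A fold of 20 was reached by 18 of them (31.6%, against 30.9%). By role, the median fold was 15.5 for the 18 writer peaks, 13.0 for the 24 eraser peaks and 11.7 for the 15 reader peaks. The upper quartiles, 19.9, 27.2 and 23.3, did not keep this order. Nor did the peaks that reached a fold of 20, which were 5 of 18, 7 of 24 and 6 of 15. Dnmt3a gave 10 of the writer peaks, with a median of 19.7, against 8.28 for the 6 of Dnmt3b. These values pool peaks of few genes, and a difference between roles was not tested. Of the 57 body peaks, 2 had a width above 1 kb, against 4.10% of peaks in protein-coding bodies. The lowest background was recorded for 54 of 57 (94.7%, 95% Wilson interval 85.6% to 98.2%), against 85.1% of peaks in protein-coding bodies. This interval covers counting error only and takes peaks of the same gene as independent, and a difference was not tested. The 3 others were the strong and the high-background peak of Tet1 and 1 at the 3′ end of Tet3, at 83364746 to 83365713, with a background of 8.06 reads.

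Along the gene, peaks were more often near the 3′ end, in the members as in other genes. Over the 8 members with a known strand, 23 of 49 body peaks (46.9%, 95% Wilson interval 33.7% to 60.6%) lay in the last 25% of the gene and 4 (8.16%) in the first. In 3844 other protein-coding genes within the same range of lengths the shares were 36.1% and 15.6%. The interval of the members' share covers counting error only and takes peaks of the same gene as independent. A difference from the other genes was not tested. Tet3 and Dnmt3a gave 6 each of the 23, and without both the share was 37.9% (11 of 29). Both were left out after their counts had been seen, so a lower share was bound to follow. Tet2 had 4 of 7 peaks in this last part and Tet1 3 of 7, whereas Uhrf1 and Dnmt3l had none there. Of the 8, the stretch from the 5′ end to the first peak was a larger share of the gene than the median of similar-length genes in Dnmt3a, Tet2 and Uhrf2.

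**Figure D4:**
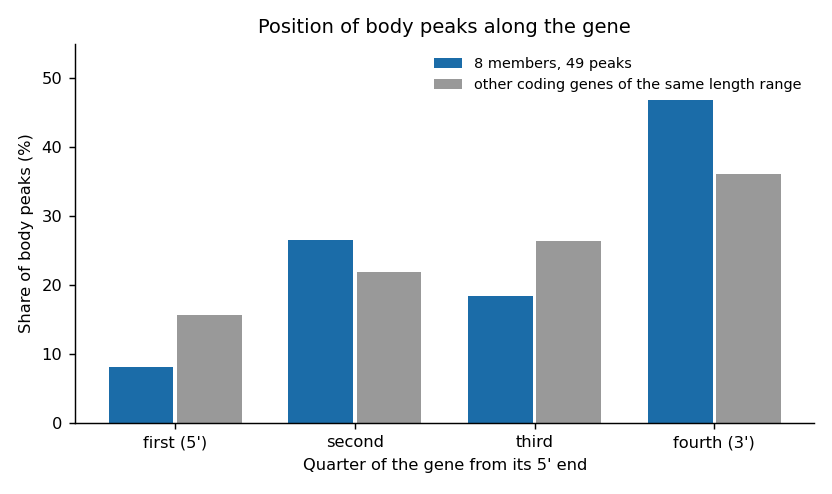
Share of body peaks (%, y axis) in each successive 25% of the gene from its 5′ end, for 8 members (blue, 49 peaks) and for 3844 other protein-coding genes of the same length range (grey). The last part holds 46.9% of the members' peaks and 36.1% of the others.

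Within 10 kb outside the genes lay 15 peaks, at 8 of 10 members, against 57.8% of protein-coding genes with such a peak. Uhrf2 and Mbd1 had 3 each, Dnmt3l, Tet3 and Uhrf1 had 2 each, Dnmt3a, Dnmt3b and Mbd2 had 1 each, and Tet1 and Tet2 had none. The median of similar-length genes was 1 throughout. The median fold of the 15 member peaks was 18.3. It was 12.8 for 6925 peaks within 10 kb of protein-coding genes but outside all of their bodies, a set unlike the 15. Of the 15, 8 fell inside a neighbouring protein-coding gene, and the share of such peaks over all genes is not given here. There were 2 in Aire, 2 in Bola3 (beside Tet3, folds of 45.3 and 6.38) and 2 in Arrdc5. Another 2 were in Gldc, a glycine-degrading enzyme gene beside Uhrf2, 1 of them 1351 bp wide with a fold of 26.3.

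The 3 peaks beside Mbd1 were unlike the rest. On its lower-coordinate side, outside any gene, they measured 2048, 1424 and 1399 bp, and their backgrounds were 85.1, 13.3 and 23.0 reads, all above the lowest. At 74259393 to 74261440 a pileup of 390 reads, the highest of all 72 peaks, gave a fold of only 4.54, the lowest of all 72. The folds of the others, at 74262491 to 74263914 and at 74264622 to 74266020, were 15.5 and 14.8. The remaining 12 flanking peaks were all at the lowest background.

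The other genes of the pathway were taken from a list of 68, of which 49 lay on covered sequence. A body peak was present in 33 of 49 (67.3%), where genes of similar length gave 71.1%. Their number of peaks was above the median of similar-length genes in 19, at it in 12 and below it in 18. For the members these counts were 9, 0 and 1. None of the 40 genes with a listed start had a peak over a start window. Of all protein-coding start windows 2.96% were overlapped, so that this absence is near the background. By group, a body peak was found in 11 of 13 other readers and their partners (77.7% of genes of similar length) and in 8 of 12 other writers and their partners (79.6%). It was found in 8 of 12 genes of methyl supply (66.7%), in 3 of 9 other erasers and helpers (54.5%) and in 3 of 3 binders of unmethylated CpG (76.0%).

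The fullest of these genes per length were Cxxc1, which binds unmethylated CpG (3 peaks in 5.28 kb), Shmt2, the mitochondrial serine hydroxymethyltransferase (3 in 5.32 kb), Gnmt, a glycine methyltransferase (2 in 3.55 kb), Cdca7, a partner of the remodeller Hells (4 in 10.7 kb), and Mta1, a subunit of the NuRD repressor complex (11 in 39.0 kb). This ranking by density favours short genes. Of similar-length genes, 0.573% had more peaks than Cxxc1, 0.577% than Shmt2, 1.59% than Gnmt, 2.13% than Mta1 and 3.99% than Cdca7. Gnmt had a peak within 1 kb of its listed start, as did 6.88% of protein-coding starts. Of the 49 covered genes, 6 had a peak within 1 kb of a gene end (12.2%, against 21.8% of protein-coding genes), namely Cxxc1, Gnmt, Mta1, Cdca7l, Mbd5 and Zfp57. No body peak was found in 8 of 30 covered genes of at least 20 kb, where the shares without a peak among genes of similar length add up to 5.08 of 30. Nsd1, a histone H3 lysine methyltransferase gene of 108.5 kb, was the longest of them, and 93.3% of genes of similar length had a peak. The others were Gatad2b (70.2 kb), Hells (40.2 kb), Trdmt1 (39.9 kb), Idh1 (27.9 kb), Cxxc4 (26.02 kb), Dnmt3c (23.5 kb) and Bhmt (20.9 kb), at whose lengths 70.3% to 89.3% of genes had a peak. Dnmt3a, at 112.9 kb, had 10.

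**Figure D5:**
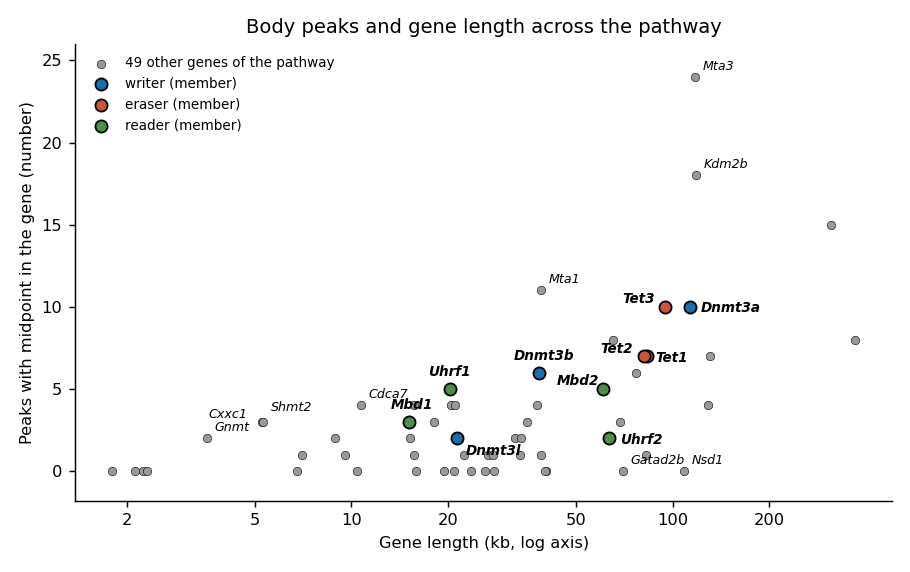
Number of body peaks (y axis) against gene length (kb, log axis) for the 10 members (coloured by role) and 49 other genes of the pathway (grey). The members range from 2 peaks in Dnmt3l and Uhrf2 to 10 in Tet3 and Dnmt3a, Mta3 has 24 and Kdm2b 18 (both labelled after their values were seen), and Nsd1 has 0.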

How the data were processed

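MBD-seq was done on 6 chondrocyte cultures, and 1 peak list of the whole series was used. Per the submitters' processing notes, fastp, Bowtie2, MACS2 and the builds mm10 and GRCm38 were used; settings are not given in the sources used here. Peaks were called after merging 3 datasets, as their names show. The deposited columns are peak start, end and summit offset, a deposited score (10 times the −log10 q, whole part), the deposited fold (a ratio to background), the deposited −log10 p and the deposited −log10 q. An incomplete last line was left out; the list covers chromosomes 1 to 5 and 10 to 19 and part of chromosome 6. Pileup and background were recovered by solving fold = (pileup + 1)/(background + 1) with a Poisson p for a whole pileup (99.97% of peaks matched within 1% of the spacing). The recovery and the peak counting were tested on simulated data.

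Genes and starts came from RefSeq tables of GRCm38.p6, which hold no exons; strand came from the start table, so Mbd1 and Mbd2 are unoriented. Exons, introns and peak sequences were not analysed here. Peaks were placed by midpoint. No test was run, as no value belongs to a sample. Alternatives were summit or overlap placement, −log10 q of 50 or 100, the lowest background alone, merging within 500 bp, other flanks, end windows, length ranges and gene kinds. Members and lists were chosen with earlier results of these data known. Named were all members, their strongest and gene-end peaks, every peak of members with at most 5, and of the other genes the 5 fullest per length with at least 2 peaks, those with a peak within 1 kb of a start (or of an end where no strand was known), and those of 20 kb or more without a peak. Python 3.11.15, pandas 2.3.3 and scipy 1.17.1 were used.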

Additional observations from a re-analysis of the deposited data

How the results depend on the processing

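No paired analysis was possible because no value can be tied to a single culture, and for the same reason no replicate was left out. Placing peaks by summit or by overlap gave 57 body peaks each, merging gave 53 and the lowest background alone 54, and 9 of 10 members stayed above the median of similar-length genes in each. Comparison with lengths of 0.5 to 2 times, or with genes of all kinds, also gave 9 of 10.

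Stricter lists hold fewer and stronger peaks by construction. At a −log10 q of at least 50, 38 body peaks were left (summed means of similar-length genes 28.2, summed medians 19.5). At this limit 7 of 10 members were above the median of similar-length genes. The medians rose to a fold of 19.2, a width of 461 bp and a −log10 q of 136.4. At 100, 26 body peaks were left (summed means of similar-length genes 18.9, summed medians 13), 5 of 10 members were above the median, no member had a gene-end peak (0), and the medians were a fold of 25.2, a width of 485.5 bp and a −log10 q of 197.8. Dnmt3b had 1 body peak at 50 and 0 at 100, Uhrf1 had 2 and 1, and Mbd1 kept 3 at both, so Uhrf1 was the densest member only without these limits. Flanks of 5 kb held 7 peaks and flanks of 20 kb held 29. A peak lay within 2 kb of a gene end in 4 members and within 500 bp in 0. The shares of protein-coding genes at these windows are not given here, so these counts make no comparison. The share of body peaks in the last 25% of the gene, recomputed in an alternative chosen after seeing the data, was 43.6% without Tet3, 43.6% without Dnmt3a and 37.9% without both.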
